A study of Mus musculus with 16 samples.

Results

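Oxidative phosphorylation depends on the products of 2 genomes, and 97 of its genes were read in mouse kidneys given cisplatin with or without a precursor of NAD. The 97 were chosen by symbol from the 23935 symbols of the deposited table: the Ndufa, Ndufb, Ndufc, Ndufs and Ndufv genes with a number, Sdha to Sdhd, names that begin with Uqcr, Cox4 to Cox8 or Atp5, and the mitochondrially encoded mRNAs. Of these, 84 are nuclear genes and 13 are carried by mitochondrial DNA. By complex they number 44 for complex I, 4 for complex II, 9 for complex III, 21 for complex IV and 19 for complex V. RNA came from whole kidney of wild-type (WT) mice, in 4 groups of 4 libraries. One group received PBS. The other three received cisplatin, a platinum drug that crosslinks DNA and is toxic to the kidney tubule, either alone, after NMN (nicotinamide mononucleotide) or after NR (nicotinamide riboside). The precursors were injected ahead of the drug, and kidneys were taken 3 days after it. The sources used here do not give doses or the strain, sex and age of the mice, and no group received a precursor without cisplatin. No label says that the 4 libraries of a group are separate animals, so the p-values rest on a spread between samples that may be technical.

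The respiratory chain sits in the inner mitochondrial membrane. Complex I takes electrons from NADH and complex II takes them from succinate, and both pass them to ubiquinone. Complex III hands them to cytochrome c and complex IV to oxygen, and complexes I, III and IV pump protons as they do so. Complex V, the ATP synthase, lets the protons back through a turning ring of c subunits and makes ATP. Mitochondrial DNA encodes the central membrane subunits of complexes I, III, IV and V but none of complex II, and its genes are transcribed as long precursors that are then cut. Proximal tubule cells are rich in mitochondria and rely on this pathway for reabsorption.

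Values are TPM, a measure of transcript abundance scaled by gene length and to a fixed total in each library, so that levels can be compared between genes. The listed values of a library summed to between 860428 and 903678 TPM, so the totals of the genes used here were not equal. This unit does not retain the number of reads, and the depth is unknown. Differences are on the scale of log2(TPM + 1), which understates changes of genes with low values, and were tested with limma over 12960 genes. "Rose", "fell", "higher" and "lower" are used for an adjusted p under 0.05, and values after ± are SDs of 4 libraries for levels and standard errors for log2 differences. Of the 97 genes, 95 passed the filter on low values. Cox8c was listed at 0 in all 16 libraries, and Cox7b2 was listed at 0 in 15 of them. The median log2 difference of all genes was 0.27 for cisplatin against PBS, -0.23 for NMN against cisplatin and -0.20 for NR against cisplatin, and median-of-ratios scaling moved each to within 0.1 of 0. Counts of all nuclear genes are therefore also given after that scaling. For cisplatin against PBS, so are those of the mitochondrial mRNAs and of complexes II and IV. Other counts by complex, role, coding length or list are of TPM without that scaling. PBS library 1 and cisplatin libraries 1 and 3 had the lowest weights of all 16 in limma's array weights, and leading counts are also given without these 3. In whole tissue, fewer cells of a type and less RNA per cell cannot be told apart.

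Summed over genes, mitochondrially encoded mRNAs were 250175 ± 33716 TPM with PBS and 148048 ± 6982 TPM with cisplatin, and the nuclear genes were 47836 ± 2713 and 41832 ± 3037 TPM. By library, the mitochondrial sum was 292835, 219216, 227538 and 261111 in PBS libraries 1 to 4 and 139895, 148869.9, 156823 and 146605 in the cisplatin libraries. The sum was 249513, 219029.8, 203826 and 244546 with NMN and 260854, 219849, 199773 and 246469 with NR. Every cisplatin library lay below every library of the other 3 groups. The 84 nuclear genes summed to 44089, 50571, 48176 and 48510.4 TPM with PBS and to 38648, 45437, 43112 and 40129 with cisplatin. With NMN they summed to 48898, 48231, 53135 and 46677 and with NR to 37920.3, 50895, 58684 and 42333. The PBS and cisplatin libraries overlapped here, as did the NR and cisplatin libraries, whereas every NMN library lay above every cisplatin library. The NR libraries held both the lowest and the highest sum of all 16. The ratio of the mitochondrial to the nuclear sum does not depend on the scaling of a library. It was 5.27 ± 1.01 in the PBS group, 3.55 ± 0.181 after cisplatin alone, 4.68 ± 0.638 with NMN and 5.11 ± 1.55 with NR. The 4 cisplatin libraries, at 3.62, 3.28, 3.64 and 3.65, were below all PBS and NMN libraries, whereas NR library 3, at 3.4, fell among them and NR library 1, at 6.88, was the highest of all. No test was made on these sums, since the genes were chosen with results of these data known.

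**Figure D1:**
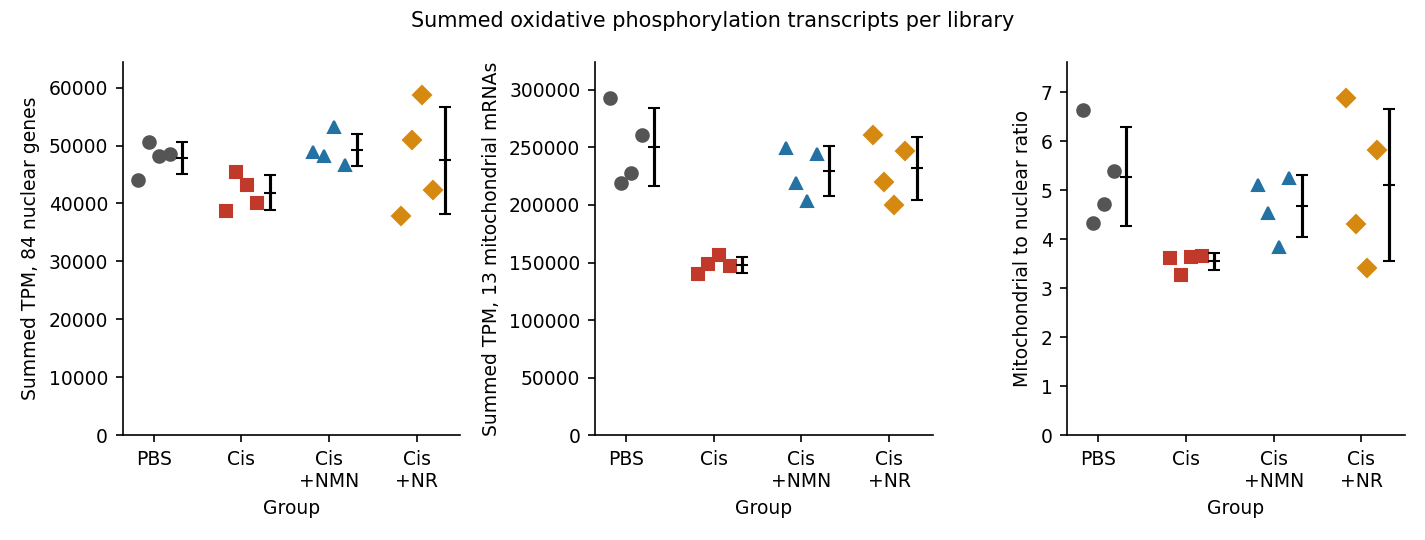
Summed TPM of the 84 nuclear genes (left) and of the 13 mitochondrially encoded mRNAs (middle), and their ratio (right), one point per library, with the group mean and SD beside the points. The cisplatin libraries lie below all others for the mitochondrial sum, while their nuclear sums overlap those of PBS and NR and lie below those of NMN. As a share of TPM without the mitochondrial mRNAs (not drawn), the nuclear sums with cisplatin overlap those of no other group.

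By limma, 10 of the 13 mitochondrial mRNAs fell with cisplatin and 0 rose, and of 82 nuclear genes 40 fell and 5 rose. Among all genes 59.4% were called in this comparison, 18.6% as lower and 40.7% as higher. The median log2 difference was -0.93 for the mitochondrial and -0.29 for the nuclear genes, against 0.27 for all genes. Quantile normalization, which compares ranks and cannot show a fall shared by the highest ranks, gave 7 lower and 2 higher mitochondrial mRNAs. After it 28.5% of all genes were lower and 28.8% higher. After median-of-ratios scaling 13 mitochondrial mRNAs fell, and 55 nuclear genes fell and 2 rose, where 28.5% of all genes were lower and 29.4% higher. Without the 3 libraries of lowest weight 9 mitochondrial mRNAs and 28 nuclear genes fell and 4 nuclear genes rose, where 17.2% of all genes were lower and 32.1% higher. The values of the 2 groups did not overlap for 10 mitochondrial and 48 nuclear genes, as for 50.8% of all genes.

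Markers of kidney cell types moved in the same libraries. Of 30 proximal tubule markers 28 were lower with cisplatin and 0 higher, and their summed TPM was 66873 to 71859 TPM in the PBS group, 6955 to 11059 after cisplatin alone, 52704 to 59082 with NMN and 46014 to 52373 with NR. None of the 30 was at 0 in all libraries of a group. Of 8 thick ascending limb markers 6 were lower and 0 higher, and of 8 endothelial markers all 8 were lower. The summed TPM of the thick ascending limb list was 999 to 1934 TPM in the PBS group, 403 to 934 after cisplatin alone, 818 to 1627 with NMN and 667 to 1352 with NR. The endothelial sum was 103 to 192 TPM with PBS and 17.4 to 56.1 TPM with cisplatin. Of 7 intercalated cell markers 5 were lower and 0 higher, and of 6 tested red blood cell markers 6 were lower. Slc4a1 is in both of these lists. The red blood cell sum was 1882 to 3825 TPM with PBS and 8.6 to 34.4 TPM with cisplatin. With NMN it was 1366 to 2886 TPM and with NR 1276 to 2607 TPM. Calls in 3 further lists were mixed. Their sums were larger with cisplatin and did not overlap those with PBS, although most genes of each list had a log2 difference below 0. Of 6 distal convoluted tubule markers 3 were lower and 1 higher, with sums of 742 to 871 TPM with PBS and 973 to 1102 TPM with cisplatin. Of 7 principal cell markers 3 were lower and 2 higher, with sums of 434 to 532 and 570.4 to 686 TPM. Of 10 macrophage and monocyte markers 2 were lower and 1 higher, with sums of 50 to 125 and 131 to 230.4 TPM. In these 3 lists the median log2 difference was -1.73, -0.34 and -0.25, and the highest was 2.4, 1.5 and 4.66. It was below 0 for 5 of 6, 5 of 7 and 7 of 10 genes, so the sums do not describe most genes of a list. The part of these cell types in the changes of oxidative phosphorylation genes was not tested.

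The fall was uneven along mitochondrial DNA. Complex I subunit mRNAs ND4 and ND4L and the complex III subunit CYTB, the cytochrome b of the chain, had the largest falls. ND4 was at 20755, 15448, 15222 and 18937 TPM with PBS and at 6570.2, 7006, 7678 and 7378 TPM with cisplatin. CYTB was at 25876, 19660.4, 19404 and 23135 and 8429, 9000.3, 9685 and 9927 TPM in the same order. Their groups did not overlap, and the log2 differences were -1.29 ± 0.14 and -1.24 ± 0.14 (limma adjusted p = 3.77e-07 for ND4 and 3.82e-07 for CYTB). COX1, which holds the haem and copper centre where oxygen is reduced, was at 37783, 27049, 30825 and 35852 TPM with PBS and at 28054, 26613, 30171 and 31209 TPM with cisplatin. These overlapped, at a difference of -0.17 ± 0.14 (limma adjusted p = 0.304). COX2, which receives electrons from cytochrome c, gave -0.29 ± 0.14 (limma adjusted p = 0.0719), and ND6 gave -0.33 ± 0.18 (limma adjusted p = 0.124). ND6 is the one protein gene of the other strand. Its last 14 bases overlap ND5, and since the sources used here do not state the strand setting of the counting, reads of ND6 and of its antisense cannot be told apart.

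The other 8 are given in the order of the genome. ND1 gave -0.48 and ND2 -0.93 before COX1, and ATP8 -1.17, ATP6 -0.64, COX3 -0.45 and ND3 -1.03 after COX2. ND4L gave -1.39 and ND5 -1.0, on either side of ND4. All 8 fell, with limma adjusted p from 6.98e-08 (ND3) to 0.00395 (ND1). Quantile normalization, which sets the values at each rank equal between libraries, gave calls in the opposite direction. A fall shared by genes that keep the highest ranks cannot appear after this step, so its calls follow ranks and not levels. After it 2 of the 13 mRNAs rose, COX1 by 0.57 and COX3 by 0.37 (limma adjusted p = 0.000313 and 0.0123), and 7 fell, COX2 and ND6 among them, where 28.8% of all genes were higher and 28.5% lower. It turned the differences of ATP6 and ND1 to above 0 as well, ended the calls of ATP8 and ND3, and kept those of ND2, ND4, ND4L, ND5 and CYTB. ND1 was also not called without the 3 libraries of lowest weight (limma adjusted p = 0.0908). ATP8 and ATP6 encode the accessory and the proton channel subunit of complex V on 1 shared mRNA, yet their differences were -1.17 ± 0.17 and -0.64 ± 0.14. They share 43 bases at chrM:7927-7969 (plus strand, GRCm38, GENCODE), printed because reads in it can be counted for either gene or for neither. Capitals mark the start codon of ATP6.
ATP8 and ATP6 overlap: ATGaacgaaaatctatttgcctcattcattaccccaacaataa
That stretch is 21.1% of ATP8, so the counting of reads for these genes is uncertain. ND4L and ND4 share 7 bases.

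Ratios between these mRNAs within a library carry no scaling. The ND4 to COX1 ratio was 0.549, 0.571, 0.494 and 0.528 with PBS and 0.234, 0.263, 0.254 and 0.236 with cisplatin. It was 0.483, 0.466, 0.468 and 0.482 with NMN and 0.503, 0.446, 0.499 and 0.471 with NR. The cisplatin libraries stood clear of the other 12, and the NMN libraries lay below all 4 PBS libraries. The CYTB to COX1 ratio was 0.672 ± 0.0436, 0.319 ± 0.0155, 0.599 ± 0.0197 and 0.585 ± 0.0239 in the order PBS, cisplatin, NMN and NR. COX1 made up 13.1 ± 0.636% of the mitochondrial sum with PBS and 19.6 ± 1.43% with cisplatin.

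**Figure D2:**
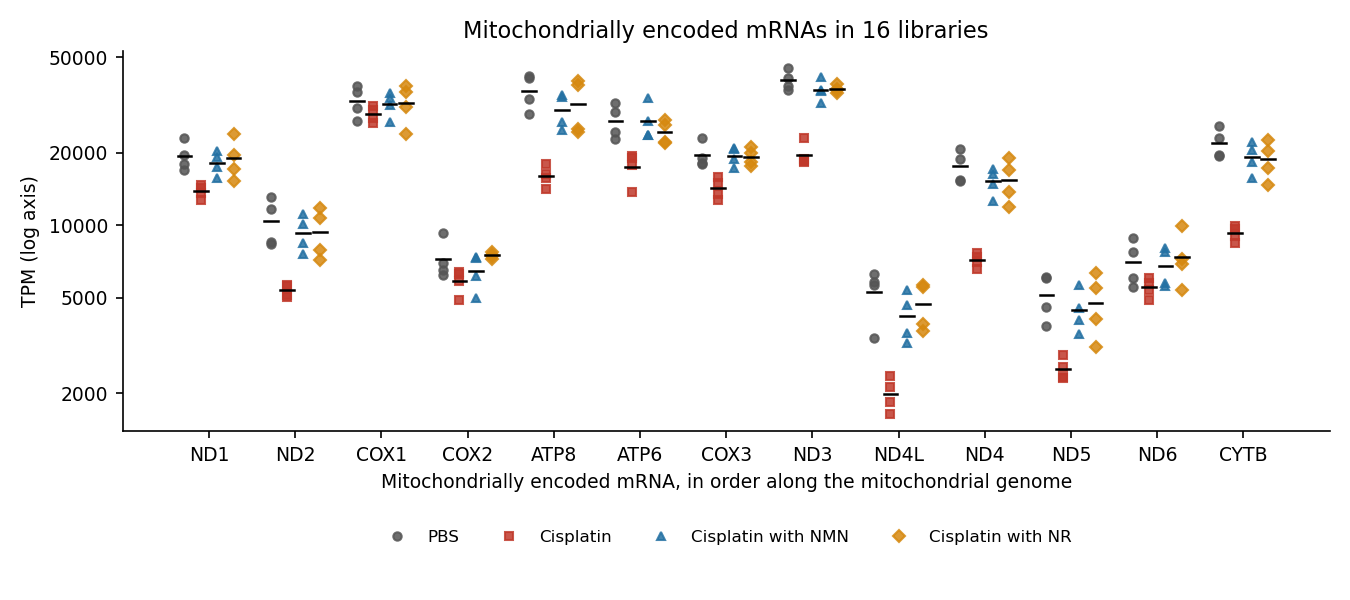
TPM of the 13 mitochondrially encoded mRNAs (log axis) in all 16 libraries, in genome order, with group means as bars. ND4L, ND4 and CYTB have the largest log2 differences between cisplatin and PBS, and COX1, COX2 and ND6 show groups that overlap.

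In complex I, all 7 nuclear core subunits fell with cisplatin, while the 28 accessory subunits split into 9 lower, 3 higher and 16 not called. Among all tested genes 18.6% were lower and 40.7% higher, shares that stand beside the TPM counts of every complex. The complex I counts are of TPM without median-of-ratios scaling, after which more nuclear genes fell. The core subunits carry the flavin and the iron-sulfur clusters that lead electrons from NADH to ubiquinone. Ndufs1, the largest of them, was at 87.4, 102, 106 and 113 TPM with PBS and at 46.9, 36.9, 30 and 43.1 TPM with cisplatin. With NMN it was at 78, 95.2, 85.5 and 98 and with NR at 77.1, 85.7, 84.1 and 90.8 TPM. Only the cisplatin libraries were under 50 TPM, and the difference was -1.37 ± 0.13 (limma adjusted p = 5.27e-08). The NADH-binding Ndufv1 went from 220.5 ± 25.1 to 160.1 ± 12.5 TPM, and Ndufs8, which holds iron-sulfur clusters, from 295 ± 22.6 to 217 ± 6.93 TPM. Without the 3 libraries of lowest weight 10 nuclear genes of complex I fell in place of 18.

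Accessory subunits surround the core and take no part in electron transfer. Ndufb5, of the membrane arm, fell from 342 ± 25.4 to 220.4 ± 13.5 TPM (log2 difference -0.63 ± 0.09, limma adjusted p = 9.98e-06). Ndufa9 and Ndufa10 fell by 0.59 ± 0.11 and 0.59 ± 0.09 on the log2 scale. Ndufb6 was at 264, 282, 286 and 345 TPM with PBS and at 535, 517, 530.3 and 443 TPM with cisplatin, and so rose without overlap (log2 difference 0.78 ± 0.18, limma adjusted p = 0.00105). With NR it spread from 269.5 to 587 TPM. Ndufa7 and Ndufa12 rose by 0.49 ± 0.11 and 0.38 ± 0.11, calls that median-of-ratios scaling ended (limma adjusted p = 0.229 and 0.64). The most abundant gene named for this complex, Ndufa4, has its product in complex IV, and fell from 1376 ± 54.6 to 1026 ± 108 TPM.

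**Figure D3:**
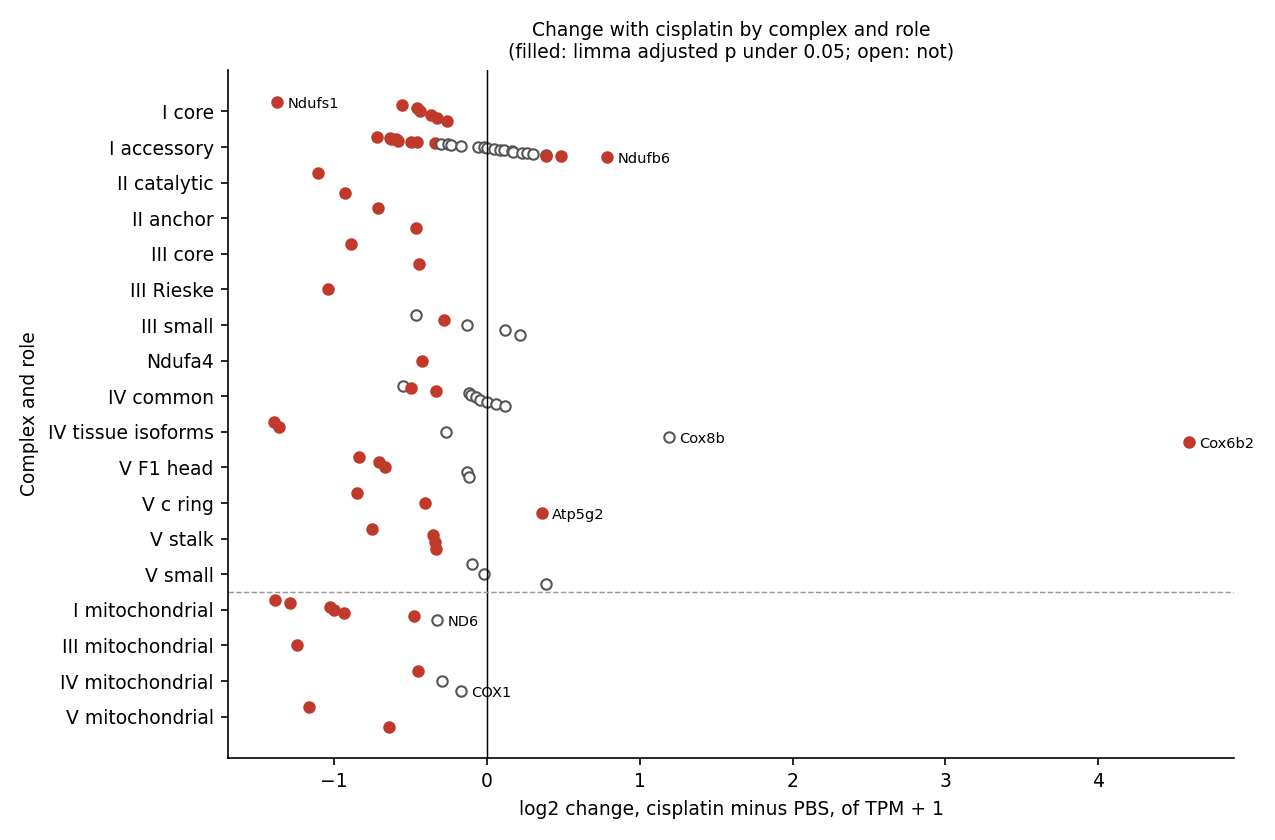
Log2 difference of TPM + 1 between cisplatin and PBS by complex and role, for the tested genes except Atp5s, Atp5sl, Cox7a2l and Ndufa4l2, with nuclear genes above the dashed line and mitochondrial ones below. Filled points have a limma adjusted p under 0.05. Core and catalytic roles lie left of 0, and Cox6b2 stands alone at 4.59. After quantile normalization, which compares ranks, COX1, COX3, ND1 and ATP6 lie right of 0.

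All 4 genes of complex II fell. Complex II is succinate dehydrogenase, shared with the citric acid cycle. Sdha, its flavoprotein, was at 202, 233, 249 and 266 TPM with PBS and at 113, 116, 99.7 and 109 TPM with cisplatin. Sdhb, its iron-sulfur subunit, was at 344, 423, 409 and 378 and 189.8, 230.4, 188 and 206 TPM in the same order. Neither overlapped, and the differences were -1.11 ± 0.12 and -0.93 ± 0.11 (limma adjusted p = 1.79e-07 and 1.03e-06). The membrane anchors Sdhc and Sdhd fell by 0.72 ± 0.09 and 0.47 ± 0.10 on the log2 scale. Summed, complex II was 1169 ± 88.6 TPM in the PBS group, 673 ± 51.2 after cisplatin alone, 1038 ± 66 with NMN and 984 ± 71.7 with NR. Its share of the nuclear sum was 2.44 ± 0.108% with PBS and 1.61 ± 0.157% with cisplatin. After median-of-ratios scaling and without the 3 libraries of lowest weight the count remained 4 of 4.

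In complex III, the Rieske protein gene and both core protein genes fell, and 1 of 5 small subunits did. Uqcrfs1, the Rieske iron-sulfur protein, was at 344, 377, 419.5 and 383 TPM with PBS and at 184, 192, 166 and 196 TPM with cisplatin, with no overlap (log2 difference -1.04 ± 0.10, limma adjusted p = 1.11e-07). The core proteins Uqcrc1 and Uqcrc2, which face the matrix, fell by 0.44 ± 0.10 and 0.89 ± 0.12. Uqcrb, a small subunit near the ubiquinone site, fell by 0.28 ± 0.12 (limma adjusted p = 0.0475), a call lost when any of 6 libraries (PBS 2, 3 or 4, cisplatin 1, 3 or 4) was left out. The most abundant nuclear gene of the complex, the small subunit Uqcr10, measured 1557 ± 119 and 1820.1 ± 248 TPM (limma adjusted p = 0.212).

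In complex IV, the nuclear subunits present in all tissues were mostly not called, while some isoforms of particular tissues differed by large factors. Of 10 common subunits 2 fell and 0 rose, and of 5 tissue isoforms 2 fell and 1 rose. Among all tested genes 18.6% were lower and 40.7% higher, so the falls of common subunits were near the share of all genes. Cox7a2l, which joins complexes III and IV, was not called. Cox4i1, which makes contact with COX1, measured 1757 ± 92.6 TPM with PBS and 1624 ± 149 TPM with cisplatin (limma adjusted p = 0.34). Cox6a1 and Cox8a, small membrane subunits, gave 0.12 ± 0.12 and 0.06 ± 0.13 (limma adjusted p = 0.44 and 0.721). Cox6c fell from 2067 ± 153 to 1464 ± 95.3 TPM and Cox7a2, the common form of subunit VIIa, from 718 ± 25.4 to 571 ± 42.8 TPM. The Cox7a2 call was lost without PBS library 1 or 4 or cisplatin library 1 or 4. After median-of-ratios scaling 10 nuclear genes of complex IV fell and 1 rose, in place of 4 and 1. With that scaling 28.5% of all genes were lower and 29.4% higher.

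Cox6b2 rose more than any other of the 95 tested genes. It encodes the testis isoform of subunit VIb, which lies on the outer face of complex IV near the cytochrome c site. PBS libraries held 10.6, 12.7, 6.86 and 17.6 TPM and cisplatin libraries 364, 264, 341 and 236 TPM. NMN libraries held 153, 92.4, 159 and 60.7 and NR libraries 120.3, 132, 189 and 134 TPM. The PBS and cisplatin groups each stood clear of all others, with the NMN and NR libraries between them. The log2 difference was 4.59 ± 0.29 for cisplatin against PBS, -1.45 ± 0.29 for NMN against cisplatin and -1.06 ± 0.29 for NR against cisplatin (limma adjusted p = 4.4e-10, 0.000485 and 0.00594). Against PBS it was 3.15 ± 0.29 with NMN and 3.53 ± 0.29 with NR (limma adjusted p = 9.24e-07 and 1.95e-07). The NR against cisplatin call was lost without the 3 libraries of lowest weight (limma adjusted p = 0.0949). Cox6b1, the common isoform, looked up after its partner's values were seen, was at 932, 1003, 948 and 1019.9 TPM with PBS and at 873, 972, 982 and 894 TPM with cisplatin (limma adjusted p = 0.634). Cox6b2 thus made up 1.2 ± 0.403% of the TPM of the pair in the PBS group, 24.4 ± 4.04% after cisplatin alone, 10.2 ± 3.4% with NMN and 13.1 ± 1.61% with NR.

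Cox6b2 lies on chromosome 7 from 4751792 to 4753094 (minus strand, GRCm38). Within 30000 bases on either side the only other gene above 1 TPM in a group mean was Kmt5c, a histone methyltransferase gene on the plus strand, which measured 39.3 ± 8.56 TPM with PBS and 26 ± 3.16 TPM with cisplatin. The 150 bases before the start of each gene of the pair are shown because 1 of them rose and the other was not called. They are RefSeq promoters of GRCm38.p6, on the minus strand, at chr7:30626115-30626264 and chr7:4753095-4753244; capitals mark the ETS motif CCGGAAG, here read on its reverse strand.
Cox6b1: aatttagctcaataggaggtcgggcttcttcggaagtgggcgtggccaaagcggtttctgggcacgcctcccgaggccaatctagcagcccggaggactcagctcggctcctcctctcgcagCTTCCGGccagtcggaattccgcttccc
Cox6b2: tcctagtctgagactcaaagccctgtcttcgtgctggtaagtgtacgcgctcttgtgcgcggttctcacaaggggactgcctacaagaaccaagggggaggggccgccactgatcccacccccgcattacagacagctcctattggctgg
The ETS motif was the one match among 4 motifs searched in Cox6b1, and Cox6b2 held none of them, which says only that these letters are not in this window. The Cox6b1 window overlaps the upstream end of its gene's GENCODE span, at 30626151.

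Of 3 isoforms known from muscle, heart or brown fat, 2 fell and 1 was not called. Cox7a1, the heart and muscle form of subunit VIIa, was at 75.1, 91.3, 93.8 and 76.3 TPM with PBS and at 20.8, 52.6, 44.4 and 21.4 TPM with cisplatin. With NMN it was at 88.4, 71.9, 82.3 and 56.8 and with NR at 70.1, 101, 88 and 93 TPM. Cisplatin libraries were below all others, at -1.36 ± 0.24 against PBS (limma adjusted p = 0.000117). Cox6a2, the muscle form of subunit VIa, was listed at 0 in all 4 cisplatin libraries, at 0.68, 2.47, 2.87 and 1.11 TPM with PBS and at 4.2, 3.12, 2.1 and 1.95 TPM with NR, and was called lower (limma adjusted p = 0.000194). Beside them, the summed TPM of 9 skeletal muscle markers was 20.6 to 33.3 TPM in the PBS group, 1.79 to 10.8 after cisplatin alone, 16.5 to 24.3 with NMN and 13.2 to 25.6 with NR. Of these 9, 2 passed the filter on low values and 1 fell with cisplatin, Pvalb, which is also in the distal convoluted tubule list and averaged 24.8 TPM with PBS, 0.527 with cisplatin and 19.1 with NMN. The actin gene Acta1 and the creatine kinase gene Ckm averaged 0.0325 and 0.107 TPM with PBS, and Myh4 was listed at 0 in all 16 libraries. The part of muscle tissue in these falls was not tested. Cox8b, a form found in muscle and brown fat, was listed at 0 in 12 of 16 libraries and stood at 26 TPM in cisplatin library 3, 1.99 in NMN library 2, 4.93 in NR library 3 and 8.09 in NR library 4. Beside it, 7 of 9 tested adipose markers were higher with cisplatin, and their summed TPM was 49.8 to 175 TPM in the PBS group, 229.6 to 470.4 after cisplatin alone, 42.2 to 140 with NMN and 42.5 to 464 with NR. By library, that sum was 49.8, 175, 89.9 and 57.2 TPM with PBS and 444, 229.6, 470.4 and 254 TPM with cisplatin. It was 42.2, 140, 71 and 52 TPM with NMN and 42.5, 142, 464 and 308 TPM with NR. In the NMN and NR groups the libraries with Cox8b above 0 were those with the largest sums. In the cisplatin group library 3 had the largest sum, and library 1, with Cox8b at 0, was close to it. Elovl3 was listed at 0 in all PBS and NMN libraries and Cidea in all NMN libraries. The brown fat gene Ucp1 averaged 0.802 TPM with cisplatin, and the part of fat tissue in the Cox8b values was not tested.

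A pair of isoform genes known to respond to low oxygen had low values. Cox4i2, the lung form of subunit IV, averaged 1.47 ± 1.03 TPM with PBS and 1.47 ± 2.17 with cisplatin (limma adjusted p = 0.615). Ndufa4l2, a paralog of Ndufa4, fell from 6.6 ± 2.67 to 3.07 ± 2.14 TPM (limma adjusted p = 0.0454), a call that was lost without any 1 of PBS libraries 2, 3 and 4 and cisplatin libraries 1, 3 and 4.

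**Figure D4:**
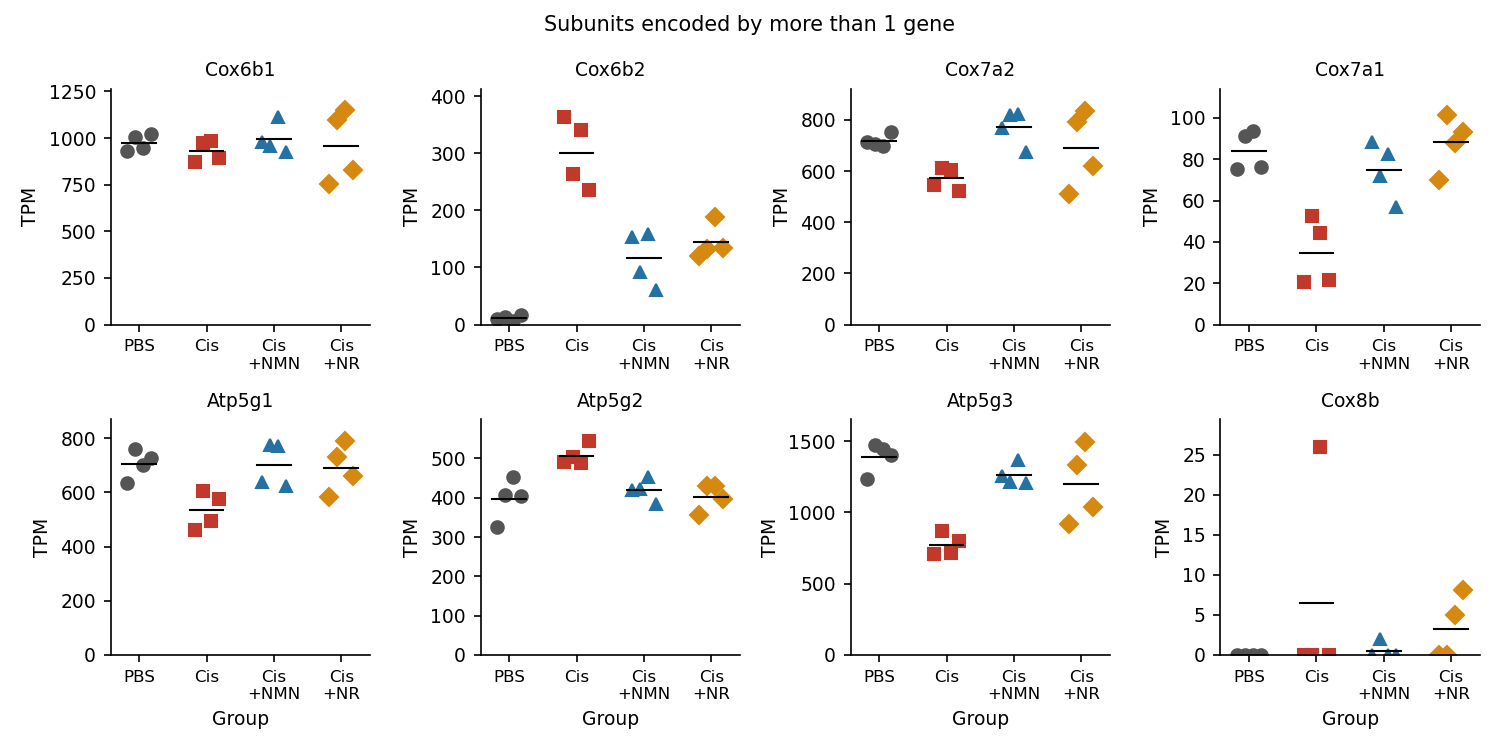
TPM of 8 genes that encode alternative forms of a subunit, one point per library with the group mean as a bar, each panel from 0 on its own scale. Cox6b2 and Atp5g2 (the latter not after median-of-ratios scaling) are higher with cisplatin than with PBS. Cox7a1, Cox7a2, Atp5g1 and Atp5g3 are lower (Cox7a2 not when some single libraries are left out), and Cox8b is above 0 in 4 libraries.

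In complex V, 3 of 5 genes of the catalytic head and all 4 of the peripheral stalk fell. Those of the head were Atp5a1, Atp5b and Atp5c1, the alpha, beta and gamma subunits. Atp5b, the beta subunit that makes ATP and the most abundant nuclear gene of the complex, was at 3318, 4269, 3924 and 3763 TPM with PBS and at 2413, 2624, 2001 and 2577 TPM with cisplatin. The groups did not overlap, and the difference was -0.67 ± 0.11 (limma adjusted p = 4.86e-05), beside -0.84 ± 0.11 for Atp5a1 and -0.71 ± 0.10 for Atp5c1. All 4 genes of the peripheral stalk, which holds the head still, fell, led by Atp5f1 from 378 ± 29.8 to 224 ± 8.3 TPM. Of 3 small membrane subunits 0 were called (limma, and 0 at an unadjusted p under 0.05). Of 2 genes named after this complex whose products are not subunits of it, Atp5sl fell from 76.7 ± 14.9 to 43.5 ± 3.0 TPM and Atp5s was not called.

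The turning ring is built from 1 protein that 3 genes encode, and in TPM these genes moved in opposite directions, a rise of Atp5g2 that other scalings ended. Atp5g1 was at 635, 761, 700.4 and 727 TPM with PBS and at 461, 605, 494 and 577 TPM with cisplatin. Atp5g3 was at 1236, 1473, 1446 and 1405 and 707, 868, 717 and 800.5 TPM in the same order. Atp5g2 was at 325, 407, 453 and 405 and 491, 504, 489.8 and 544 TPM. None of the 3 genes overlapped between the groups, with log2 differences of -0.41 ± 0.12 and -0.85 ± 0.13 for the genes that fell and 0.36 ± 0.10 for Atp5g2, which rose (limma adjusted p = 0.00635, 1.7e-05 and 0.00604). The Atp5g2 call ended under median-of-ratios scaling (limma adjusted p = 0.695), and the Atp5g1 call ended without the 3 libraries of lowest weight (limma adjusted p = 0.0899). As shares of the 3 genes' summed TPM, which carry no scaling, Atp5g2 was 14.8, 15.4, 17.4 and 16% in the PBS libraries and 29.6, 25.5, 28.8 and 28.3% in the cisplatin libraries. Its share was 17.6 ± 0.357% with NMN and 17.8 ± 1.54% with NR. Atp5g3 held 55.8 ± 0.378% with PBS and 42.6 ± 0.972% with cisplatin.
The 150 bases before each start are shown because the same protein is made from all 3 genes. They are RefSeq promoters of GRCm38.p6, on the minus strand, at chr11:96075632-96075781, chr15:102671048-102671197 and chr2:73911327-73911476; capitals mark the NRF1 motif, which is GCGC, any 2 bases and GCGC again.
Atp5g1: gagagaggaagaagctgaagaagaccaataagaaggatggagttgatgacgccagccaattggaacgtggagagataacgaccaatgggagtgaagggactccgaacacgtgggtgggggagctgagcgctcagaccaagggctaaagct
Atp5g2: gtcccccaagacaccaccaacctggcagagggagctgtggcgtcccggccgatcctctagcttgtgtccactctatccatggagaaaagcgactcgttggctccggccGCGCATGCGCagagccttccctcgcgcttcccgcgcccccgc
Atp5g3: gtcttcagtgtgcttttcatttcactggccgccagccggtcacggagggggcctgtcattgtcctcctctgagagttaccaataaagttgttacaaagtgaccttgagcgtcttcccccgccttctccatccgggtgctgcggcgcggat
Atp5g2 held the NRF1 motif, and the windows of Atp5g1 and Atp5g3 held none of the 4 motifs. The Atp5g2 window lies within the GENCODE span of the gene (chr15:102662864-102672352), so the motif precedes a start inside that span. The Atp5g1 window overlaps the upstream end of its gene's span, at 96075670.

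Promoters could be matched for 67 of the 84 nuclear genes in the RefSeq table. In the 250 bases before the start, on either strand, the motif of NRF1, a regulator of respiratory genes, was present in 14 of 67 (20.9%) and in 5.64% of 27025 promoters of all genes. The ETS motif CCGGAAG was present in 12 of 67 (17.9%) against 7.83%, the YY1 motif AAGATGGC in 2 against 1.83% and the AP-1 motif TGANTCA in 6 (8.96%) against 7.82%. NRF1 letters occurred in 5 of 30 genes that fell with cisplatin, 1 of 5 that rose and 8 of 31 that were not called. Those for ETS occurred in 4, 1 and 7 of the same groups. A match describes letters, not binding.

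The genes that fell with cisplatin held nearly all with a long coding sequence. Of 22 tested nuclear genes with at least 600 coding bases 21 fell and 0 rose, and of 60 shorter ones 19 fell and 5 rose. In steps, 7 of 21 genes under 300 coding bases fell, 6 of 26 from 300 to 450, 6 of 13 from 450 to 600, 12 of 13 from 600 to 1200 and 9 of 9 above. The median log2 difference of these steps was -0.13, -0.01, -0.27, -0.59 and -0.67. For the other tested genes it was 0.42, 0.54, 0.51, 0.31 and 0.21, and 13.4%, 13.7%, 14.2%, 19.4% and 19.2% of them were lower. Across the 82 genes Spearman's rho between coding length and the log2 difference was -0.42, and across the other tested genes it was -0.12. Genes are not independent replicates, and all points share the same 8 libraries. The counts are of TPM without median-of-ratios scaling, after which more nuclear genes fell. The long genes include most core and catalytic subunits and the short ones most accessory and membrane subunits. Role and length thus go together in most genes, though not in all, and their separate parts were not tested.

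**Figure D5:**
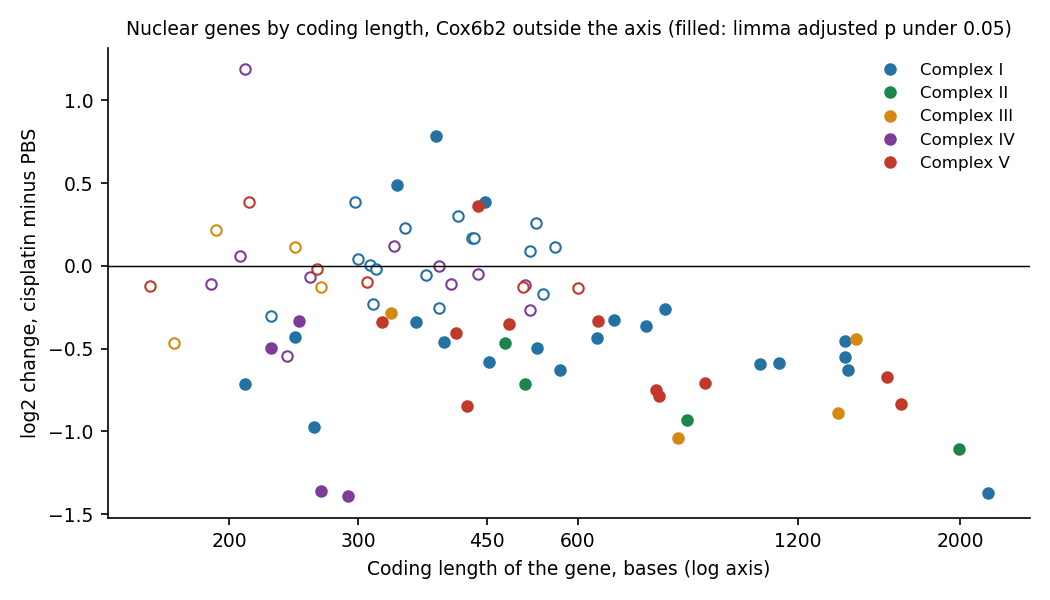
Log2 difference of TPM + 1 between cisplatin and PBS against coding length (log axis) for the tested nuclear genes other than Cox6b2, whose 4.59 is beyond the axis, coloured by complex. Filled points have a limma adjusted p under 0.05, and all 22 genes of 600 bases or more lie below 0.

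With NMN before cisplatin, 10 of 13 mitochondrial mRNAs and 41 of 82 nuclear genes were higher than with cisplatin alone, and 3 nuclear genes were lower. With NR, 11 and 30 were higher and 3 nuclear genes were lower. Among all genes 49.1% were called with NMN, 15.1% as higher and 34% as lower. With NR 46.6% were called, 14.4% as higher and 32.2% as lower. Both comparisons use the cisplatin libraries that were also set against PBS, so a low value there enters all of them. After median-of-ratios scaling 52 nuclear genes were higher and 1 lower with NMN (22.3% and 23.5% of all genes), and 47 and 1 with NR (21.2% and 22.4%). Without the 3 libraries of lowest weight 24 nuclear genes and 9 mitochondrial mRNAs were higher with NMN, against 12.9% of all genes, and 16 and 9 with NR, against 12.1%. The genes lower than with cisplatin alone were Cox6b2, Ndufa7 and Atp5g2 in both comparisons. With median-of-ratios scaling only Cox6b2 kept the call.

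By complex, all 4 genes of complex II were higher with either precursor. For the nuclear genes of complex I 17 of 37 were higher with NMN and 11 with NR, for complex III 4 and 3 of 8, for complex IV 5 and 3 of 16 and for complex V 11 and 9 of 17. Ndufs1 was higher by 1.18 ± 0.13 with NMN and 1.1 ± 0.13 with NR on the log2 scale (limma adjusted p = 9.14e-07 and 2.5e-06). Sdha was at 179, 189, 193 and 248 TPM with NMN and at 181, 186, 204 and 222 with NR. These lay above all cisplatin libraries and within or below the PBS range. Uqcrfs1, at 325 ± 26.2 and 313 ± 39.7 TPM, and Atp5f1, at 349.7 ± 14.1 and 318 ± 30.9 TPM, were also higher than with cisplatin alone in both comparisons. Among mitochondrial mRNAs, ND4 was at 16328, 14808, 12574 and 17176 TPM with NMN and at 19117, 13791, 11967 and 16926 with NR. Every one of these libraries was above the cisplatin libraries. COX1 and ND6 were called with neither precursor. COX2 was called higher with NR, by 0.36 ± 0.14 (limma adjusted p = 0.0377), and gave 0.13 ± 0.14 with NMN (limma adjusted p = 0.467). The NR call was lost without cisplatin library 1 or 4 or any 1 of the NR libraries. After quantile normalization, which compares ranks, ND6 and COX2 were called higher and COX1 lower with both precursors. The ND6 differences were then 0.57 with NMN and 0.45 with NR (limma adjusted p = 0.000337 and 0.00261).

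Against PBS, few of these genes were called. With NMN and cisplatin 1 of 95 differed, Cox6b2, where 6.0% of all genes were called. The median log2 difference was 0.01 for nuclear and -0.15 for mitochondrial genes, the latter below 0 for 13 of 13. With NR and cisplatin 2 of 95 differed, Cox6b2 and Sdhc, where 10% of all genes were called. Sdhc was at 263, 286, 286 and 290.4 TPM with PBS and at 219, 219, 227 and 252 TPM with NR, a difference of -0.29 ± 0.09 (limma adjusted p = 0.0444). That call was lost without any 1 of PBS libraries 2, 3 and 4 or NR libraries 1, 2 and 3. After median-of-ratios scaling 14 nuclear genes were lower with NR than with PBS (3.69% of all genes), and 0 with NMN (0.702% of all genes). Whether NMN and NR differ in this was tested gene by gene between the 2 groups, with 0 calls. At an unadjusted p under 0.05, 3 of 82 nuclear genes differed from PBS with NMN and 9 with NR, and 0 mitochondrial mRNAs with either. The share of all genes at that threshold is not given here, so these counts are not read as a difference between the precursors.

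NMN is the phosphorylated form of NR. Between the groups given the 2 compounds 0 of 95 genes were called by limma, under every alternative tried, as for 0% of all genes. Unadjusted p-values under 0.05 occurred for 1 of 95 and for 370 of all 12960 genes. The 1 was Cox6a2, at 1.12, 0.30, 1.24 and 0.84 TPM with NMN and at 4.2, 3.12, 2.1 and 1.95 TPM with NR (log2 difference -1.03 ± 0.27, limma adjusted p = 1). Log2 differences between the compounds ran from -1.04 to 0.28, 93 of 95 within 0.5 of 0, with a median standard error of 0.13. The doses are not known here, and differences of the size of these errors could not have been seen.

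Cox7b, a small subunit of complex IV, was looked up after its values were seen. It stood at 881, 306, 303 and 325 TPM in the NMN libraries and at 513, 290.5, 324 and 253 TPM in the NR libraries, against 292, 347, 270.4 and 291 TPM with PBS and 178, 242, 202 and 199.9 TPM with cisplatin. NMN library 1 and NR library 1 exceeded all others, and the gene was higher with NMN than with cisplatin (log2 difference 0.98 ± 0.28, limma adjusted p = 0.00764) and with NR than with cisplatin (0.70 ± 0.28, limma adjusted p = 0.0479). Without NMN library 1 the first difference was 0.61 (limma adjusted p = 0.0115), and without NR library 1 the second was 0.49 (limma adjusted p = 0.164). The NR call was also lost without cisplatin library 1, 3 or 4 or NR library 2 or 3, and both calls were lost without the 3 libraries of lowest weight.

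Other genes of the pathway, outside the symbol rule, were taken from lists. Among all tested genes 40.7% were higher with cisplatin than with PBS and 18.6% lower, and most of these lists are short. Of 16 complex I assembly factors 9 fell with cisplatin and 0 rose, among them Ecsit (60.3 ± 8.55 to 28.3 ± 2.57 TPM) and Tmem126b (21.3 ± 1.99 to 11.4 ± 0.0876 TPM). In the lists for the other complexes, of 4 for complex II 2 rose, of 6 for complex III 3 rose and 1 fell, and of 22 for complex IV 5 rose and 2 fell. Uqcc2, which assists the making of cytochrome b, rose from 100.3 ± 10 to 319.6 ± 31.5 TPM (limma adjusted p = 1.58e-06), beside the fall of CYTB. Of 4 genes for complex V assembly and inhibition 0 were called (limma, and 0 at an unadjusted p under 0.05). Of 26 genes of mitochondrial DNA transcription and RNA handling 4 rose and 3 fell. Lrpprc, which stabilizes mitochondrial mRNAs, fell from 22.8 ± 3.1 to 15.6 ± 1.88 TPM, and Polg, the polymerase that copies mitochondrial DNA, rose from 20 ± 3.61 to 31.1 ± 3.32 TPM. Of 11 further respiratory chain genes 4 fell and 1 rose, with Etfa, which brings electrons from fatty acid oxidation, at 266 ± 27.7 and 116 ± 15 TPM and the uncoupling protein gene Ucp2 at 71.4 ± 13.4 and 285 ± 21.4 TPM.

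Of 35 named nuclear genes with a position, 11 overlap the span of another coding gene, among them Ndufs1 (with Eef1b2), Ndufb6 (with Smim27) and Atp5f1 (with Wdr77). Reads there could have been counted for either gene or for neither.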

How the data were processed

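The authors' deposited table holds TPM in 16 whole kidney libraries, 4 per group by the sample titles. Per the submitters' processing notes, the tools were DESeq2 1.10.1, HTSeq 0.6.1, STAR 2.4.1d and Trim Galore, with builds GRCm38 and mm10. Which did what, and the annotation, gene lengths and strandedness behind TPM, the sources used here do not say. Entries sharing a symbol were summed. The 12960 genes that reached 1 TPM in 4 or more of the 16 libraries were fitted on log2(TPM + 1) in a single limma model (limma 3.58.1, statmod 1.5.0, R 4.3.3; 4 group means, 12 residual degrees of freedom, trend and robust) with Benjamini-Hochberg adjustment over all tested genes. The code was tested on simulated data.

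Members, lists and tests were chosen with earlier results of these data known. Named with values are the mitochondrial mRNAs, isoform pairs, the most abundant nuclear gene per complex, and up to 4 nuclear genes per complex or comparison with the smallest adjusted p together with those called higher; up to 3 per pathway list.

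Alternatives were median-of-ratios and quantile scaling, rescaling without mitochondrial mRNAs, a pseudocount of 0.1, a minimum of 5 TPM or none, limma without trend and robust, a fit of the compared groups alone, a replicate block, array weights and each library left out. A fit without the 3 libraries of lowest weight was chosen after seeing the data. Positions and coding lengths came from GENCODE for GRCm38. Figures were drawn with matplotlib 3.10.9.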

Additional observations from a re-analysis of the deposited data

Results flagged for a closer look

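Of 232 groups of 4 libraries examined, 13 held a library whose gap to its nearest neighbour was a larger share of the group's range than the critical value of Dixon's test, and chance gives about 1 in 20. NR library 1 was lowest in its group for Atp5b (2797 TPM), Atp5f1 (272 TPM) and the complex II sum (877 TPM). PBS library 1 was lowest for Atp5f1 (334 TPM) and Sdhc (263 TPM). Cisplatin library 2 was highest for ND3 (22973 TPM) and lowest for the ratio of mitochondrial to nuclear sums (3.28). Cisplatin library 3 was lowest for Sdhc (147 TPM) and highest for Cox8b (26.0 TPM). Cisplatin library 4 was highest for Cox4i2 (4.70 TPM) and PBS library 2 for the same gene (3.01 TPM). NMN library 1 was highest for Cox7b (881 TPM) and NMN library 2 for Cox8b (1.99 TPM).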

How the results depend on the processing

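Of 2113 alternative values for 113 called changes of named genes, 1982 kept direction and call, 122 kept the direction and lost the call, and 9 changed direction. The 9 arose under quantile normalization, which sets the values at each rank equal between libraries. A change shared by genes that keep the highest ranks cannot appear after it. For cisplatin against PBS the reversed differences were ATP6 at 0.23, COX3 at 0.37 and ND1 at 0.26 on the log2 scale. The other two comparisons gave ATP6 -0.10, COX3 -0.20 and ND1 -0.32 for NMN against cisplatin, and ATP6 -0.19, COX3 -0.28 and ND1 -0.15 for NR against cisplatin. After it COX1 and ND1 were called lower with NMN than with cisplatin (COX1 at -0.54) and COX1 was called lower with NR (-0.46).

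Without the 3 libraries of lowest weight, 35 genes were called for NMN against cisplatin (24 nuclear higher, main 54 and 41) and 27 for NR against cisplatin (16 nuclear higher, main 44 and 30). For NR against cisplatin, nuclear genes called higher were 47 with median-of-ratios scaling, 55 with quantile normalization and 52 when rescaled without mitochondrial mRNAs, and 6 mitochondrial mRNAs were higher with quantile normalization. For NMN against PBS 6 genes were called with quantile normalization. For NR against PBS 15 were called with median-of-ratios scaling, 16 with quantile normalization, 1 without trend and robust, 1 with only the groups compared and 1 to 3 with a library left out, of which 1 to 2 were nuclear and higher. The nuclear sum went to 51435 TPM for PBS and 36300.1 for cisplatin with median-of-ratios scaling, and to 51148 and 37545 when rescaled; the mitochondrial sum with cisplatin went to 128495 with median-of-ratios scaling. The causes were not tested.

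Over all tested genes, the deviations of libraries with the same replicate number from their group means had a median correlation of 0.07 (24 pairs, -0.13 to 0.29), against -0.01 for different numbers, so the numbers were not taken to pair the samples. The ratio of the mitochondrial to the nuclear sum was nonetheless higher in libraries 1 and 4 than in 2 and 3 in the PBS, NMN and NR groups, though not with cisplatin alone. With the replicate number as a block 58, 59 and 51 genes were called for cisplatin against PBS, NMN against cisplatin and NR against cisplatin, and 4 for NR against PBS. Depth is unknown, so counting error could not be separated from the spread.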
